A study of Mus musculus with 6 samples.

Results

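Expression of 6 genes that endothelial cells use to sense and answer blood flow, or that mark valve endothelium, was examined in the cardiac outflow tract (OFT) of E13.5 mouse embryos. The genes, *Klf2*, *Klf4*, *Nfatc1*, *Piezo1*, *Thbd* and *Vwf*, were chosen by symbol and are 6 of the 28777 genes in the deposited count table, each matched by its Ensembl identifier. Bulk RNA-Seq libraries were made from 3 embryos' OFTs pooled per replicate, giving 3 libraries labelled *Notch1*+/-; *Nos3*-/- (mutant) and 3 labelled wildtype, from 18 OFTs in all. The compound mutants lack 1 working copy of the Notch receptor gene and both copies of the endothelial nitric oxide synthase gene, in a C57/BL6J background, and the controls are littermates that carry neither allele. Both alleles are germline knockouts, so that any cell type of the tissue carries them, and neither was placed under a promoter specific to endothelium. The question addressed here was whether these flow-responsive genes differ between the labels, as may be asked of embryos without the flow-responsive enzyme encoded by *Nos3*.

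The endocardium that lines the OFT is exposed to the shear stress of flowing blood while the semilunar valves form beneath it. Piezo1, a mechanically gated cation channel, is among the sensors of this force, and a kinase relay of Mekk3, Mek5 and Erk5 acting on Mef2 factors raises the transcription factors Klf2 and Klf4. In endothelium these factors induce thrombomodulin, the product of *Thbd*, which is the surface receptor that turns thrombin towards activating protein C. *Nfatc1* encodes a calcineurin-dependent transcription factor of the valve-forming endocardium, and *Vwf* encodes von Willebrand factor, a clotting glycoprotein that endothelial cells and megakaryocytes store and release.

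The proximal promoters of 3 of the 6 genes, *Klf2*, *Klf4* and *Piezo1*, were matched in the RefSeq promoter table of GRCm38.p6, and are shown to let the transcription factor genes be compared with the sensor gene. *Nfatc1*, *Thbd* and *Vwf* had no entry. Each sequence is the 250 bases before the RefSeq start, read 5′ to 3′ on the gene's strand. Capitals mark matches on either strand to the Mef2 consensus, to CACCC (the core bound by Kruppel-like factors) and to GAGACC (a motif described as responsive to shear stress).
Klf2 chr8:72318812-72319061, plus strand: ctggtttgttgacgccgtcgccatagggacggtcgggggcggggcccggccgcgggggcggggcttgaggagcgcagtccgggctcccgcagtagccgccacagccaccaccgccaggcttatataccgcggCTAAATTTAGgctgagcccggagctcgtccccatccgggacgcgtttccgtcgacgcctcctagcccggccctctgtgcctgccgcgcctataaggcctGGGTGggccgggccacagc
Klf4 chr4:55532476-55532725, minus strand: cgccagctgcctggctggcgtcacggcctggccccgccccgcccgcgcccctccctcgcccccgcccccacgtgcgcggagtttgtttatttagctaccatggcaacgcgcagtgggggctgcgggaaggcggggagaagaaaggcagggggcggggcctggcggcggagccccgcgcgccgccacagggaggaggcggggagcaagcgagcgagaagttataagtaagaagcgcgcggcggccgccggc
Piezo1 chr8:122551330-122551579, minus strand: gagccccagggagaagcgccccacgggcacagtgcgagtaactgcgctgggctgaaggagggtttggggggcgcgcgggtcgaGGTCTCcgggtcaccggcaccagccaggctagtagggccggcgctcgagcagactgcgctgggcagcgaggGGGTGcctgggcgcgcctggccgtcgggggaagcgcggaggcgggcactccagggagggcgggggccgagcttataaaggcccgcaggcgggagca

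The *Klf2* promoter held 1 Mef2 match, CTAAATTTAG, from 118 to 109 bases before the start, and a CACCC core read as GGGTG, which began 19 bases before it. A Mef2 match was present in 3.19% of 32817 mouse promoter windows, which also hold the 50 bases after the start, and a CACCC core in 57.5%. The *Klf4* promoter held none of the 5 motifs searched. *Piezo1* held 1 CACCC core, 96 bases before the start, and 1 GAGACC match, read as GGTCTC and beginning 167 bases before it, a motif found in 16.4% of promoters. The other motifs were TGGGAA, found in 25.6% of promoters, and GGAAA, the core bound by NFAT, found in 61.3%. These 2 can share letters. TGGGAA was in none of the 3 promoters and GGAAA in that of *Klf2* alone, 74 bases before the start. A match is a run of letters and was not tested as a binding site. The 250 bases were rich in G and C in each gene, at 71.2% in *Klf2*, 74% in *Klf4* and 74% in *Piezo1*.

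The labels were first checked against the targeted genes. *Notch1* was higher under the mutant label, at 152 ± 10.9 CPM (SD, n = 3) against 82.0 ± 7.09 CPM under the wildtype label (log2 fold change 0.89, SE 0.10, adjusted p = 0.0313, edgeR). CPM are read counts brought to 1 library size with edgeR's TMM factors. *Nos3* was lower, at 21.5 ± 0.949 against 42.4 ± 9.18 CPM (log2 fold change −0.98, SE 0.15, adjusted p = 0.128, edgeR). It was called by DESeq2 (adjusted p = 9.4e-06), without wildtype replicate 1 (adjusted p = 0.00176, edgeR) and with the replicate number as a block, whether the numbers came from the titles (adjusted p = 2.7e-04, edgeR) or the descriptions of the samples (adjusted p = 0.0125, edgeR). Because *Notch1* counts were not lower under the label with 1 working copy, the groups are called the libraries labelled mutant and the libraries labelled wildtype throughout. The cause of the higher *Notch1* counts was not tested. Total counts ranged from 34729103 to 44387490 per library, and the 6 genes had between 436 and 3657 reads in each library.

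All 6 genes were expressed in every library and passed the filter on low counts, which kept genes whose reads summed to more than 5. Per kilobase of merged exons, the mean level over the 6 libraries was highest for *Klf2* at 14.6 CPM per kb, with a range of 10.4 to 17.5. *Piezo1* followed at 8.38 CPM per kb and *Nfatc1* at 8.21, and their ranges overlapped. *Klf4* was at 5.49 and *Thbd* at 5.34 CPM per kb, also with overlapping ranges, and the range of *Klf4* reached that of *Nfatc1*. *Vwf* was lowest at 1.80 CPM per kb, between 1.27 and 2.61. The gaps that exceeded the spread of the libraries were thus those between *Klf2* and *Piezo1* and between *Thbd* and *Vwf*. Per kilobase of the longest transcript these 2 gaps closed, *Nfatc1* came second, and the gap between *Piezo1* and *Klf4* exceeded the spread. Among 28105 genes with a length, *Klf2* stood at percentile 84.9 and *Vwf* at percentile 52.6.

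**Figure D1:**
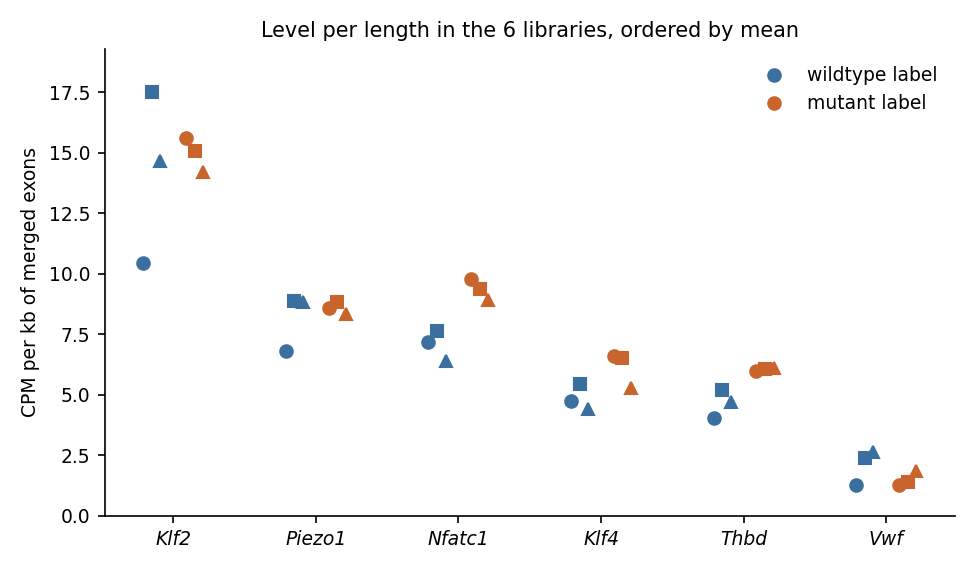
Level of each gene in CPM per kb of merged exons (linear axis from 0) in the 6 libraries, with circles, squares and triangles for replicates 1, 2 and 3 and blue or orange for the wildtype or mutant label. *Klf2* lies above the others in all libraries and *Vwf*, from 1.27 to 2.61 CPM per kb, below them.

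None of the 6 genes (0 of 6) differed between the labels at an adjusted p of at most 0.05 by edgeR's quasi-likelihood test, in which 6 of 28157 genes tested, or 0.0213%, were called. DESeq2 called 1, *Nfatc1*. The 2 genes whose groups did not overlap were *Nfatc1* and *Thbd*, where 19.6% of all genes tested did not overlap, and both were higher under the mutant label. Of all genes tested, 10.7% were higher without overlap. An unadjusted p under 0.05 was reached by 3 of the 6, *Nfatc1*, *Thbd* and *Klf4*, against 16.1% of all genes tested. The median log2 fold change of the 6 genes was 0.21, beside 0.01 over all genes tested, with 5 genes higher and 1 lower under the mutant label. The median of the 6 was 0.12 without wildtype replicate 1 and 0.34 without wildtype replicate 2. In whole tissue, fewer cells of a type and less RNA per cell cannot be told apart. The libraries labelled as replicates are separate pools of embryos, and an exact permutation test of 3 against 3 cannot give a p under 0.1.

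**Figure D2:**
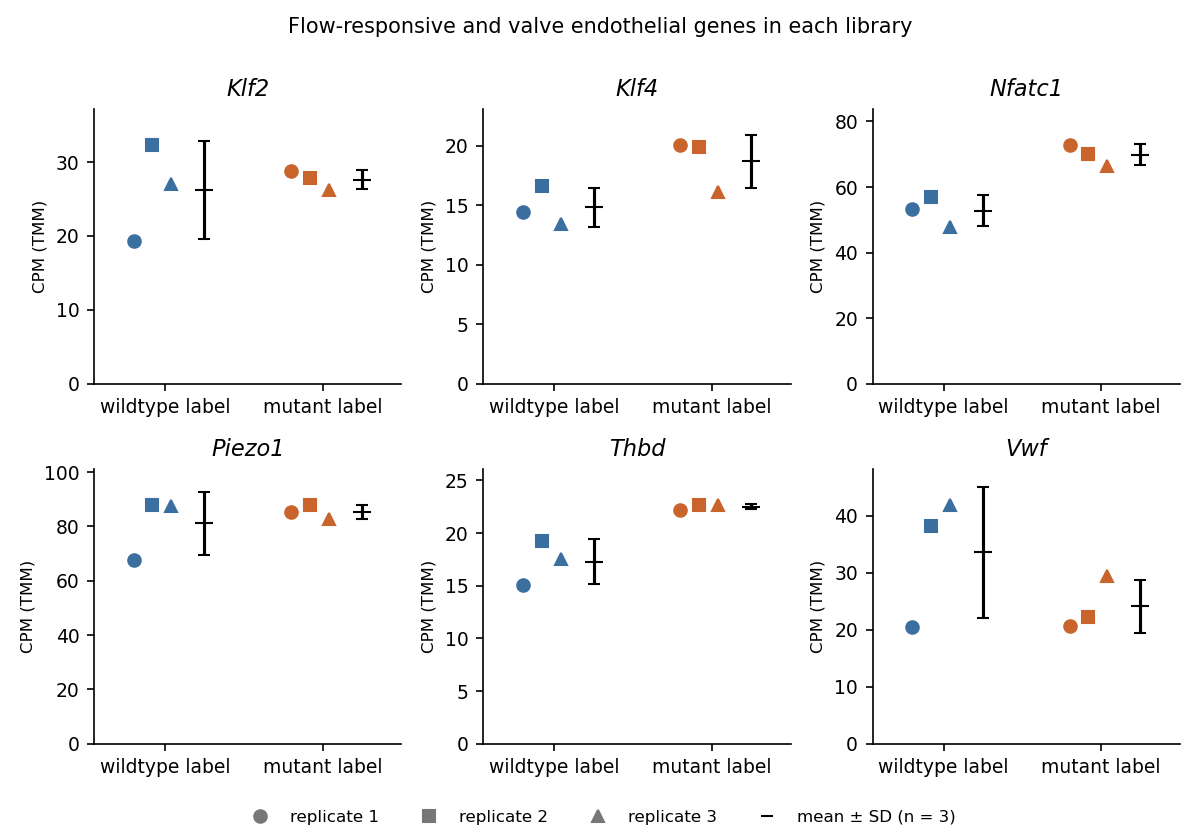
CPM after TMM scaling (linear axes from 0) of the 6 genes in each library, by label, with the mean and SD of 3 libraries in black. The groups are apart for *Nfatc1* and *Thbd*, and wildtype replicate 1 is the lowest point for *Klf2*, *Piezo1*, *Thbd* and *Vwf*.

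*Piezo1*, the channel, lies on chromosome 8 (mm10, 122481698 to 122551329, minus strand) with 43 merged exons. It had 67.6, 88.1 and 87.6 CPM in wildtype replicates 1, 2 and 3, and 85.3, 87.9 and 82.9 CPM in mutant replicates 1, 2 and 3. Wildtype replicate 1 was low, and the other 5 libraries were close together with the labels overlapping. The log2 fold change was 0.07 with an SE of 0.11 (adjusted p = 0.796, edgeR), and it was −0.041 without wildtype replicate 1 and −0.14 after a correction for gene GC content and length. The gene shares 2441 exonic bases, 24.6% of its own, with *Ctu2* on the opposite strand, and whether the counting used the strand is not given in the sources used here, so its count may hold reads of that gene. *Ctu2* was measured at 13.7 ± 0.494 CPM under the wildtype label and 15.02 ± 2.56 CPM under the mutant label.

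*Klf2*, on chromosome 8 (72319033 to 72321656, plus strand, 3 exons), had 19.3, 32.4 and 27.0 CPM in wildtype replicates 1 to 3 and 28.8, 27.9 and 26.2 CPM in mutant replicates 1 to 3. The mutant libraries lay close together and inside the range of the wildtype ones, whose lowest value was again that of replicate 1. The log2 fold change was 0.08 with an SE of 0.16 (adjusted p = 0.854, edgeR; exact permutation p = 0.8, two-sided), and it turned to −0.10 without wildtype replicate 1. With the GC and length correction the value was below 0 by less than 0.01, with an SE of 0.13. Within the wildtype label the spread was 25.1% of the mean, against 4.72% within the mutant label.

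*Klf4*, the paralog of *Klf2* in the response to flow, lies on chromosome 4 (55527143 to 55532466, minus strand, 5 merged exons). Wildtype replicates 1 to 3 had 14.4, 16.6 and 13.4 CPM, and mutant replicates 1 to 3 had 20.1, 19.9 and 16.1 CPM. Mutant replicate 3 fell below wildtype replicate 2, so the labels overlapped, while the other 2 mutant libraries were above all wildtype ones. The log2 fold change was 0.33 with an SE of 0.13 (unadjusted p = 0.0284, adjusted p = 0.267, edgeR), and it stayed positive in the 18 alternative fits. The lowest adjusted p among these fits was 0.110 and the highest 0.995.

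*Thbd*, a gene of 1 exon on chromosome 2 (148404466 to 148408188, minus strand), had 15.05, 19.3 and 17.5 CPM in wildtype replicates 1 to 3. In mutant replicates 1 to 3 it had 22.2, 22.6 and 22.7 CPM. The mutant libraries were nearly equal and all above the wildtype ones. *Thbd* was 1.30-fold higher on the fitted scale (log2 fold change 0.38, SE 0.12, unadjusted p = 0.00736, adjusted p = 0.204, edgeR; exact permutation p = 0.1, two-sided, the smallest possible). It was called in 2 of the 18 alternative fits, those with the endothelial marker mean as a covariate (0.39, adjusted p = 0.0279, edgeR) and with the GC and length correction together with the replicate block (0.36, adjusted p = 0.0437, edgeR), which called 7.37% of all genes tested.

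*Vwf* was the gene of the 6 with the lower mean under the mutant label. It spans 56 merged exons on chromosome 6 (125546774 to 125686679, plus strand). The wildtype libraries had 20.5, 38.3 and 42.0 CPM in replicates 1 to 3 and the mutant ones 20.7, 22.3 and 29.4 CPM. Wildtype replicate 1 stood at the level of the lowest mutant libraries, while the other 2 wildtype libraries were above every mutant one. The log2 fold change was −0.47 with an SE of 0.23 (unadjusted p = 0.0669, adjusted p = 0.341, edgeR). Without wildtype replicate 1 it was −0.73, with an SE of 0.14, and *Vwf* was then called (adjusted p = 0.0235, edgeR), in a fit that called 9.45% of all genes tested. Of 8 megakaryocyte and platelet markers, none of which was at 0 in a library, 7 were lower under the mutant label. Their median log2 fold change was −0.15, or −0.32 without wildtype replicate 1 and −0.06 without mutant replicate 2. Among those lower, *Itgb3*, *Itga2b* and *Gp1bb* were at −0.004, −0.04 and −0.08. The summed level of these markers was 39.0 to 46.3 CPM in the wildtype and 35.9 to 39.4 CPM in the mutant libraries. Most of that sum was *Itgb3*, at a mean of 23.9 CPM, and 4 of the 8 markers had a mean under 1 CPM. Of these markers *Ppbp* had a log2 fold change of −1.69 and *Gp9* of −0.81, with adjusted p of 0.243 and 0.291 by edgeR. Both were low, at means of 0.76 and 0.90 CPM, and *Ppbp* was highest in wildtype replicate 2, at 2.19 CPM. The part of platelet RNA in the *Vwf* values was not tested.

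*Nfatc1*, on chromosome 18 (80606205 to 80713071, minus strand, 12 merged exons), had 53.4, 57.1 and 47.8 CPM in wildtype replicates 1 to 3. Mutant replicates 1 to 3 had 72.9, 70.0 and 66.5 CPM. Each mutant library was above each wildtype library, and the gap between the labels was wider than the spread within either. It was 1.32-fold higher under the mutant label (log2 fold change 0.40, SE 0.10, unadjusted p = 0.0019, adjusted p = 0.181, edgeR; exact permutation p = 0.1, two-sided, the smallest possible), and ranked 287 by p among all genes tested. A fit with the replicate number as a block called it (0.41, adjusted p = 0.0246, edgeR), where 5.6% of all genes tested were called. That block uses the numbers in the titles, and with those of the descriptions, which exchange wildtype replicates 2 and 3, *Nfatc1* was not called (0.41, adjusted p = 0.171, edgeR) and none of the 6 genes was (0 of 6). DESeq2's Wald test called it too (0.40, adjusted p = 0.0231), with 2.64% of genes called, as did the fit without wildtype replicate 1 (0.41, adjusted p = 0.0328, edgeR). The range of adjusted p over the 18 alternative fits was 0.0168 to 0.994.

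**Figure D3:**
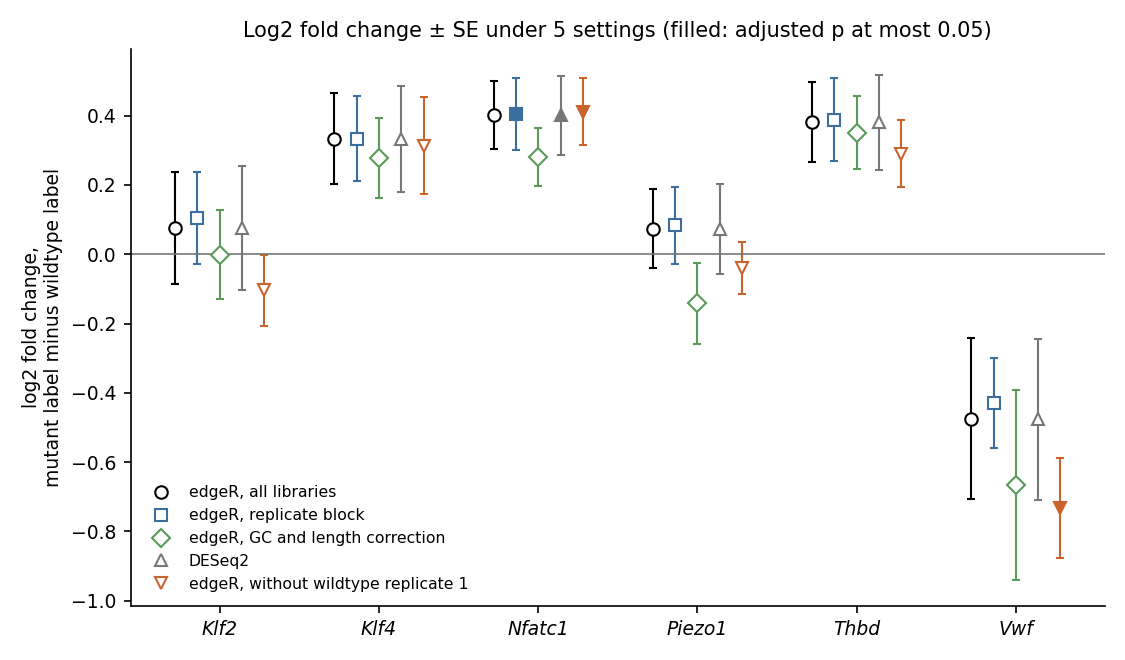
Log2 fold change of each gene, mutant minus wildtype label, with its SE as the bar, under 5 settings, with filled symbols where the adjusted p was at most 0.05. *Nfatc1* and *Thbd* stay above 0 and *Vwf* below it in all 5, while *Klf2* and *Piezo1* lie on both sides of 0.

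The share of endothelial RNA in each library was followed by the mean log2(CPM + 0.5) of 18 endothelial markers, among them *Pecam1*, *Cdh5* and *Tie1*. All 18 were detected in each library, so that each held endothelial RNA. The mean was 5.72, 6.11 and 6.15 in wildtype replicates 1 to 3 and 5.95, 5.91 and 6.08 in mutant replicates 1 to 3. Wildtype replicate 1 was the lowest library on this scale, as it was for 12 of the 18 markers and for 4 of the 6 genes described. The labels differed by −0.01 (exact permutation p = 0.9, two-sided).

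Relative to this mean, *Thbd* was the 1 gene of the 6 whose groups did not overlap, where 12.2% of all genes tested did not overlap and 3% were higher without overlap. On the log2 scale it was −1.76, −1.80 and −1.98 in wildtype replicates 1 to 3 and −1.44, −1.38 and −1.54 in mutant replicates 1 to 3. The difference was 0.39 (exact permutation p = 0.1, two-sided). Every mutant library was thus above every wildtype library both before and after the endothelial mean was subtracted. *Nfatc1* differed by 0.42 on the same scale, but mutant replicate 3 fell below wildtype replicate 1 (exact permutation p = 0.2, two-sided). Within libraries of the same number in the titles, *Thbd*, *Nfatc1* and *Klf4* were higher on this scale in 3 of 3 pairs, as were 13.8% of all genes tested, with differences for *Nfatc1* of 0.22, 0.49 and 0.54. *Vwf* was lower in 3 of 3 pairs, as were 15.6% of all genes tested. The differences of *Klf4*, *Klf2* and *Piezo1* were 0.34, 0.12 and 0.10, and that of *Vwf* was −0.41, with groups that overlapped for each. With the endothelial mean as a covariate in the fit of all genes, *Nfatc1* (0.40, adjusted p = 0.0168, edgeR), *Thbd* and *Vwf* (−0.39, adjusted p = 0.0223, edgeR) were called, where 7.2% of all genes tested were.

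**Figure D4:**
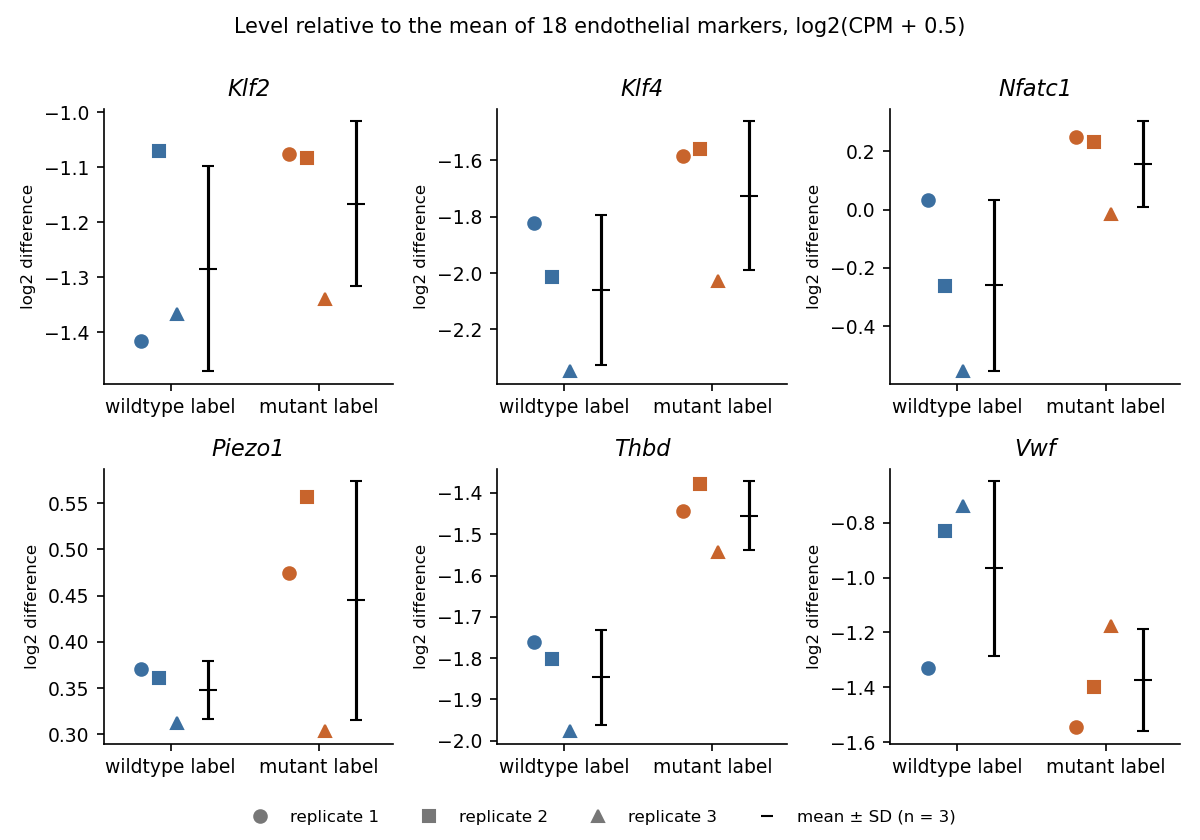
Level of each gene minus the mean of 18 endothelial markers, as a difference of log2(CPM + 0.5), in each library, with the mean and SD of 3 libraries in black (the axes do not start at 0). *Thbd* keeps the labels apart, with wildtype libraries at −1.76 or lower and mutant libraries at −1.54 or higher.

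Markers of other cell types are given beside these values. The 12 myocardial markers were all lower under the mutant label, with summed levels of 32761 to 48180 CPM against 22419 to 32226 CPM, and the 9 blood markers were all lower, with a median log2 fold change of −0.56, or −0.35 without wildtype replicate 2. All 8 mesenchymal markers were higher, with a median of 0.60, which was 0.99 without wildtype replicate 1 and 0.38 without wildtype replicate 3. Of 12 immediate early genes, which respond to handling of tissue as well as to growth signals, 10 were higher, with a median of 0.19, or 0.31 without wildtype replicate 1, and the mean of their log2 levels did not overlap between the labels, at −0.22 to −0.02 in the wildtype and 0.06 to 0.21 in the mutant libraries relative to their average. None of these genes (0) was called by edgeR with all libraries and the label alone. In the direction given, 9 myocardial, 7 blood, 6 mesenchymal and 4 immediate early genes had an unadjusted p under 0.05, beside 16.1% of all genes tested. With the replicate block 9, 4, 7 and 2 of them were called by edgeR, beside 5.6% of all genes, and 5, 3, 1 and 1 by DESeq2, beside 2.64%. Without wildtype replicate 1 edgeR called 6 myocardial, 8 blood, 8 mesenchymal and 2 immediate early genes in the same directions, beside 9.45% of all genes. The immediate early mean as a covariate turned the log2 fold change of *Vwf* to 0.80 (adjusted p = 0.494, edgeR). It brought *Nfatc1* to 0.22 (adjusted p = 0.994, edgeR), *Klf4* to 0.10, *Klf2* to 0.49, *Piezo1* to 0.40 and *Thbd* to 0.63. None of the 6 genes was called. That mean separates the labels, so its part and that of the label cannot be told apart in this fit. The SE was 0.20 for *Nfatc1*, 0.24 for *Thbd* and 0.24 for *Vwf*, beside 0.10, 0.12 and 0.23 without the covariate. The myocardial mean as a covariate brought *Vwf* to −0.05, *Klf4* to 0.14 and *Nfatc1* to 0.30. In the same fit *Thbd* was at 0.42, *Piezo1* at 0.13 and *Klf2* at 0.11, each above its value without the covariate. The part of tissue composition in the values of the 6 genes was not tested.

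Around the 6 genes, 9 lists of 94 other genes of the same pathways were read from the same fit. None was called by edgeR (0 of 94), 21 of the 94 or 22.3% had an unadjusted p under 0.05, and 51 were higher and 43 lower under the mutant label, with a median log2 fold change of 0.04, or 0.013 without wildtype replicate 1. With the replicate block 19 of the 94, or 20.2%, were called by edgeR, beside 5.6% of all genes, and with the numbers of the descriptions 1 was called, *Nos3*. The calls with the block given below thus rest on the numbers of the titles. DESeq2, fitted without a block, called 6, or 6.38%, beside 2.64%. By its Wald test these were *Nos3*, *Pkd1*, *Hdac7*, *Aqp1*, *Adm* and *Wnt9b*, with adjusted p of 9.4e-06, 0.0109, 0.0118, 0.0127, 0.0305 and 0.00733. Without wildtype replicate 1 edgeR called 12 of the 94, or 12.8%, beside 9.45% of all genes. Of all 28157 genes tested 16655 had a mean of at least 1 CPM, as did 87 of the 94. The shares called among such genes were not computed. The lists were also chosen with earlier results of these data known. The genes named below are those of each list with the smallest p.

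Among 12 sensors of flow, 7 were higher and 5 lower. *Pkd1*, which encodes the large polycystin of the flow-sensing cilium, had 112, 91.0 and 77.5 CPM in wildtype replicates 1 to 3 and 160, 165 and 116 CPM in mutant replicates 1 to 3. The groups did not overlap, with a log2 fold change of 0.65 (SE 0.16, adjusted p = 0.181, edgeR), and it was called with the replicate block (adjusted p = 0.0015, edgeR). *Piezo2*, the second Piezo channel, was at 37.2 ± 14.6 CPM under the wildtype and 60.1 ± 8.56 CPM under the mutant label (0.69, adjusted p = 0.225, edgeR), and was called with the block (adjusted p = 0.0033). *S1pr1*, a sphingosine 1-phosphate receptor of endothelium, was lower (−0.40, adjusted p = 0.248, edgeR) and passed with the block (adjusted p = 0.0300, edgeR).

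In the relay from Mekk3 to Mef2, 5 of 8 genes were higher and 3 lower. *Hdac7*, which encodes a deacetylase that represses Mef2, had 57.4, 68.4 and 66.4 CPM in wildtype replicates 1 to 3 and 88.6, 94.0 and 81.3 CPM in mutant replicates 1 to 3. All mutant libraries were above all wildtype ones (0.46, SE 0.10, adjusted p = 0.181, edgeR), and *Hdac7* was called with the block (adjusted p = 0.0144, edgeR). *Mapk7*, which encodes Erk5, also kept the labels apart, at 32.6 ± 2.87 and 41.9 ± 4.04 CPM (0.36, adjusted p = 0.208, edgeR). *Map3k3*, which encodes Mekk3, was at 75.8 ± 0.713 and 82.0 ± 2.94 CPM (0.11, adjusted p = 0.542, edgeR). The Ccm complex and its receptor Heg1 restrain this relay. Of 5 genes listed with them, *Krit1* had the smallest p (0.19, adjusted p = 0.394, edgeR). *Ccm2* followed at 0.07 and *Rasip1*, which is not part of the complex, at −0.04.

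Genes that flow induces were higher in 8 and lower in 4 of 12, with a median of 0.23, which was 0.087 without wildtype replicate 3 and 0.039 with the myocardial mean as a covariate. *Nos3* itself, knocked out by the design, is 1 of the 4, and its RNA was still counted in each mutant library, at 20.4 to 22.1 CPM. *Gja5*, which encodes a connexin of arterial endothelium, is named after its values were seen because the block also called it, as lower. It was at 65.5 ± 32.3 CPM under the wildtype and 37.0 ± 16.9 CPM under the mutant label (−0.82, adjusted p = 0.285, edgeR; with the block 2.7e-04). *Aqp1*, a water channel, was at 94.8 ± 19.3 CPM under the wildtype and 140.0 ± 9.05 CPM under the mutant label, with no overlap (0.56, adjusted p = 0.181, edgeR), and was called with the block (adjusted p = 0.00458, edgeR). *Adm*, which encodes the vasodilator peptide adrenomedullin, was at 3.49 ± 0.410 and 5.67 ± 0.552 CPM, also apart (0.70, adjusted p = 0.181, edgeR), and was called with the block (adjusted p = 0.0254, edgeR). Of 6 genes that flow represses, 5 were lower, with a median of −0.20, or −0.11 without wildtype replicate 2. The exception was *Angpt2*, an antagonist of the Tie2 receptor, at 5.68 ± 1.39 and 9.29 ± 4.29 CPM (0.70, adjusted p = 0.291, edgeR), which was called with the block (adjusted p = 0.0237, edgeR). *Esm1* and *Apln*, markers of growing vessel tips, were at −0.53 and −0.20.

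Of 15 other Kruppel-like factor genes, 10 were higher and 5 lower. *Klf13* had the smallest p, at 44.3 ± 0.736 and 51.3 ± 1.63 CPM (0.21, adjusted p = 0.279, edgeR), and *Klf12* was at 0.38. *Klf17*, with 12 reads over all libraries, was too low for a fold change.

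**Figure D5:**
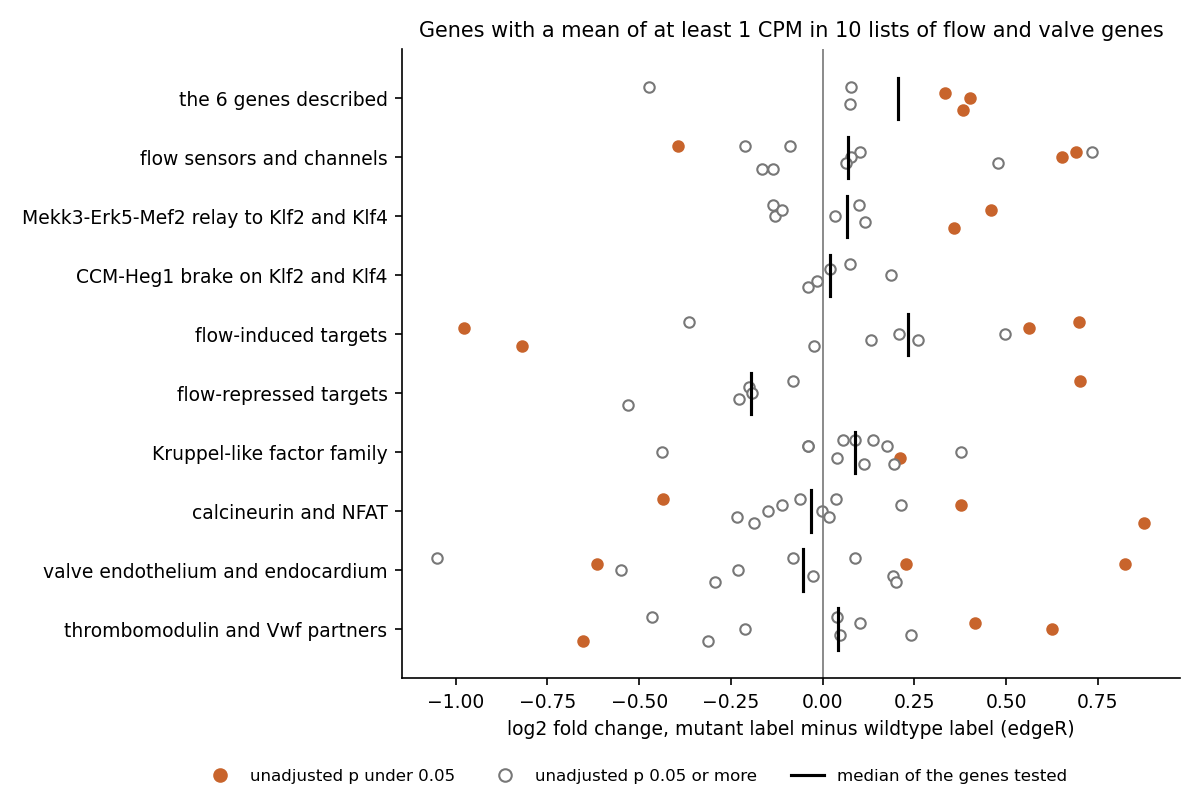
Log2 fold change (mutant minus wildtype label, edgeR) of the 6 genes and of the 87 genes in 9 lists with a mean of at least 1 CPM, with filled points where the unadjusted p was under 0.05 and a bar at the median of the genes tested. The points of each list lie on both sides of 0, with medians between −0.20 and 0.23 for the 9 lists.

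In the calcineurin and NFAT pathway, in which *Nfatc1* acts, 5 of 12 genes were higher and 7 lower. *Nfatc4*, a second calcineurin-dependent factor, had 56.4, 36.2 and 23.8 CPM in wildtype replicates 1 to 3 and 75.8, 85.0 and 53.4 CPM in mutant replicates 1 to 3. The labels overlapped through mutant replicate 3 and wildtype replicate 1 (0.88, SE 0.26, adjusted p = 0.203, edgeR), and *Nfatc4* was called with the block (adjusted p = 3.8e-04, edgeR). *Nfat5*, whose product does not depend on calcineurin, was at 112 ± 19.9 and 145 ± 3.88 CPM with no overlap (0.38, adjusted p = 0.224, edgeR; with the block 0.0454). *Rcan2*, which encodes a calcineurin regulator, was lower at 46.2 ± 9.58 against 62.4 ± 11.4 CPM (−0.43, adjusted p = 0.254, edgeR; with the block 0.0262). The 4 genes of the calcineurin subunits had log2 fold changes from −0.23 to 0.04, and none had an unadjusted p under 0.05.

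Of 12 genes of valve endothelium and endocardium, 5 were higher and 7 lower. *Wnt9b*, which encodes a Wnt ligand of valve endocardium, had 11.1, 12.6 and 6.93 CPM in wildtype replicates 1 to 3 and 17.7, 19.8 and 16.8 CPM in mutant replicates 1 to 3. Its groups were apart (0.82, SE 0.19, adjusted p = 0.181, edgeR), and it was called with the block (adjusted p = 0.00133), by DESeq2 (adjusted p = 0.00733) and without wildtype replicate 1 (adjusted p = 0.0371, edgeR). *Npr3*, a natriuretic peptide receptor of the endocardium, was lower, at 85.9 ± 31.4 against 132 ± 36.4 CPM (−0.61, adjusted p = 0.264, edgeR; with the block 0.00153). *Cdh11*, a cadherin of valve cushions, was at 0.23 with no overlap (adjusted p = 0.304, edgeR).

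The 12 genes listed with thrombomodulin and von Willebrand factor, of which not all are their partners, had 7 higher and 5 lower genes. *Mmrn2*, which encodes an endothelial matrix protein, had 46.3, 74.4 and 96.9 CPM in wildtype replicates 1 to 3 and 42.3, 40.1 and 55.7 CPM in mutant replicates 1 to 3. Wildtype replicate 1 lay among the mutant values and the other 2 wildtype libraries above them (−0.65, SE 0.23, adjusted p = 0.233, edgeR; with the block 0.00743). *Rab27a*, a regulator of the release of von Willebrand factor, was at 8.82 ± 1.93 and 11.7 ± 0.584 CPM with no overlap (0.42, adjusted p = 0.273, edgeR).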

How the data were processed

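Total RNA of pooled E13.5 OFTs was sequenced in 6 libraries. Alignment by the authors was to mm10 with TopHat2 (2.1.0, per the submitters' processing notes), exonic reads were counted with GenomicAlignments, and raw whole-number counts per gene were deposited. Here the 28157 genes whose reads summed to more than 5 were tested in R 4.3.3 with edgeR 4.0.16 (TMM, quasi-likelihood test, Benjamini-Hochberg adjustment, adjusted p of at most 0.05). The SE was taken from the F statistic. Alternatives were DESeq2 1.42.0, limma-voom (limma 3.58.1), other scaling, filters and covariates, a GC content and length correction, a replicate block and each library left out. Single genes were compared with exact permutation tests of log2(CPM + 0.5). Positions and lengths came from GENCODE, which lacks 54 of the 28777 identifiers, and promoters from RefSeq (GRCm38.p6). The code was tested on simulated data.

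Groups and replicate numbers follow the titles of the samples, and the titles and descriptions give opposite library numbers for wildtype replicates 2 and 3. Deviations from the group means of libraries with the same number in the titles correlated at 0.10, 0.15 and 0.46 over 16655 genes. The replicate block was fitted on that ground. The titles name no litter or batch, so the pairing was inferred from the same counts that the block was then used to test. With the numbers of the descriptions the correlations were 0.10, −0.49 and −0.12. The members and lists were chosen with earlier results of these data known. The named genes were the 6 members, the 2 targeted genes, the called genes of each list or the 3 with the smallest p, and the 3 genes most like each member. A gene that this rule names is not reported here. The Endothelial, Myocardial, VSMC, Mesenchymal, Epicardial, Megakaryocyte and platelet, Macrophage, Blood and Immediate early lists were written from general knowledge. The single-cell data were not analysed here.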

Additional observations from a re-analysis of the deposited data

How the results depend on the processing

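The number of genes called was 6 with all libraries, 742 by DESeq2, 1577 with the replicate block, 2076 with the GC and length correction and the block, 2028 with the endothelial mean and 16 with the immediate early mean as a covariate. With each library left out it ranged from 1 to 2593, the last without wildtype replicate 1. With a block on the numbers of the descriptions, added after seeing the data, it was 83. Of the 6 genes described, 1 was called by DESeq2, 1 with the block, 3 with the correction and block, 3 with the endothelial mean, and 0 to 2 with a library left out. Of the 94 pathway genes, 6, 19, 21 and 14 were called under these 4 settings, 1 with the numbers of the descriptions and 0 to 12 with a library left out.

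*Nfatc1* passed the threshold at 0.40 (DESeq2), 0.41 (block), 0.29 (correction and block) and 0.40 (endothelial mean), and ranged from 0.34 to 0.46 with a library left out. *Thbd* passed at 0.36 and 0.39 with the correction and block and with the endothelial mean, and *Vwf* at −0.62 and −0.39. *Vwf* ranged from −0.73 to −0.28 with a library left out and was 0.80 with the immediate early mean. The direction turned for *Piezo1* with the correction, at −0.14, and with the correction and block, at −0.13, and ranged from −0.041 to 0.14 with a library left out. *Klf2* was at −0.00073 with the correction and ranged from −0.10 to 0.26 with a library left out. In the permutation test of log2 levels, the differences ranged from −0.097 to 0.27 for *Klf2* and from −0.041 to 0.15 for *Piezo1* with a library left out, turning without wildtype replicate 1. The causes were not tested. The block alone changed no other call of the 6 genes, and added to the correction it brought *Nfatc1*, *Thbd* and *Vwf* past the threshold. With the numbers of the descriptions 0 of the 6 genes were called.

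Without gene length, the order of levels was *Piezo1* 1, *Nfatc1* 2, *Vwf* 3, *Klf2* 4, *Thbd* 5 and *Klf4* 6, and by the longest transcript *Nfatc1* was 2 and *Piezo1* 3. Scaling by library size alone moved the median of all genes from 0.01 to 0.11. Of 171 list medians under other settings, 141 moved by less than 1 SD between libraries and 30 by more. Depth limited *Klf17* and *Proc*, with 12 and 28 reads over all libraries, and not the 6 genes, with 436 or more in each.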

Other observations

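The ratio of 1 gene's CPM to another's within a library does not depend on the scaling. Of the 15 ratios among the 6 genes, 3 did not overlap between the labels, and these were chosen with their values in view, so no test is given. The share of ratios without overlap over all genes was not computed, and 19.6% of single genes did not overlap. The ratio of *Thbd* to *Vwf* was 0.735, 0.503 and 0.417 in wildtype replicates 1 to 3 and 1.07, 1.01 and 0.771 in mutant replicates 1 to 3. The ratio of these RNAs was thus higher in each library labelled mutant, though mutant replicate 3 was little above wildtype replicate 1. The ratio of *Piezo1* to *Thbd* was 4.49 to 4.996 in the wildtype and 3.65 to 3.88 in the mutant libraries. The ratio of *Nfatc1* to *Piezo1* was 0.546 to 0.790 and 0.797 to 0.854, a gap of less than 0.01. The ratio of *Klf2* to *Piezo1* ranged from 0.285 to 0.367 over the 6 libraries and that of *Klf4* to *Nfatc1* from 0.242 to 0.291. The labels overlapped in both.

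As a description over the same 6 libraries, the genes with the pattern most like each of the 6, by Pearson's r of log2(CPM + 0.5) among 16654 genes, were the following. For *Klf2* they were *Bcl3* (0.993), *Epb41l4aos* and *Gm6426*, and for *Klf4* they were *Clk3* (0.995), *Fxyd5* and *Npdc1*. For *Nfatc1* they were *Gm43071* (0.999), *Nat10* and *Irak4*, and for *Piezo1* they were *Twf2* (0.992), *Gm4977* and *Myg1*. For *Thbd* they were *Hspa1a* (0.994), *Capn5* and *Ankrd39*, and for *Vwf* they were *Pea15a* (0.998), *Gm5459* and *Rpl15-ps5*. The points share 6 libraries, and nothing about shared function or control was tested.

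Among the 18 endothelial markers, 7 were higher and 11 lower under the mutant label. With all libraries and the label alone 0 were called by edgeR or DESeq2. By edgeR 4 had an unadjusted p under 0.05, beside 16.1% of all genes tested. Without wildtype replicate 1 edgeR called 2, both as lower, beside 9.45% of all genes. With the replicate block 2 were called as lower by edgeR, *Emcn* (adjusted p = 0.0118) and *Plvap* (adjusted p = 0.0239), beside 5.6% of all genes. The 4 with an unadjusted p under 0.05 were *Egfl7* (0.36), *Sox17* (0.44) and *Cldn5* (0.36), which were higher, and *Plvap* (−0.74). *Plvap* was lower and varied more within the wildtype label (65.8 ± 32.7 CPM). Of the 9 macrophage markers 5 were higher and 4 lower, with *Lyz2* at 12.6 ± 2.32 CPM under the mutant against 30.7 ± 14.6 CPM under the wildtype label (−1.28, adjusted p = 0.165, edgeR; with the block 1.5e-04, by DESeq2 4.7e-04). The 6 epicardial markers had 2 higher and 4 lower genes, and the 8 smooth muscle markers 5 higher and 3 lower, of which *Myh11* was at 4.001 ± 1.03 against 1.94 ± 0.259 CPM (1.04, adjusted p = 0.181, edgeR; with the block 0.0118, by DESeq2 0.0141).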
